A study of Mus musculus with 8 samples.

Results

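Ankrd1, Ankrd2, Ankrd23, Csrp3, Xirp1, Xirp2 and Flnc are genes of the muscle sarcomere whose RNA is known to respond to stretch and load. They were chosen by symbol from the gene list of the probe panel, and 6 of these 7 genes had a row among the 19465 genes measured. Xirp2 was not analysed here. All 6 measured genes passed the filter on low counts in each of the fits used, and the 8 sections held between 25 UMIs (distinct RNA counts) of Ankrd2 and 91825 UMIs of Csrp3 per section.

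Spatial expression was measured with a probe-based assay on 5 µm sections of formaldehyde-fixed mouse embryonic diaphragm, in 55 µm spots laid out every 100 µm. The groups were 3 control sections at E14.5, 2 control sections at E18.5, 1 CaV1.1 KO section at each of these ages and 1 bCat cKO section at E18.5. CaV1.1 KO embryos lack the skeletal muscle calcium channel that triggers contraction, and their muscle does not contract. In bCat cKO embryos (HSA-Cre with floxed β-catenin) Cre is driven by the skeletal actin promoter, so that β-catenin is removed in muscle fibers. Controls carried at least 1 functional allele of both genes and need not be wild type. The KO embryos came from crosses of carriers or from crosses that also carried HSA-Cre and floxed β-catenin, and which of these gave the sections is not given in the sources used here. The paper lists CaV1.1+/− parents for the cKO embryos too. Whether the cKO section carried a CaV1.1 null allele is not given either. Each mutant group is 1 embryo, so the fits assume that mutants vary as controls do. Fewer muscle cells in a spot and less RNA per cell cannot be told apart.

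The proteins Ankrd1, Ankrd2 and Ankrd23 form the muscle ankyrin repeat family. They bind the elastic part of titin and can move to the nucleus, which places them between the strained sarcomere and gene regulation. Csrp3, or muscle LIM protein, binds α-actinin and telethonin at the Z-disc, the plate that anchors actin filaments. Xirp1, or Xin, binds actin and marks myotendinous junctions and intercalated discs, and filamin C, encoded by Flnc, crosslinks actin at the Z-disc and the membrane and is a binding partner of Xin. In the embryonic diaphragm, muscle fibers run from the ribs to a central tendon, with endplates along their middle and myotendinous junctions (MTJ) at both ends.

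In the GENCODE vM21 annotation of GRCm38, the ankyrin repeat genes lie at chr19:36111961-36120099 on the minus strand (Ankrd1), chr19:42036000-42045110 on the plus strand (Ankrd2) and chr1:36530188-36536883 on the minus strand (Ankrd23). Csrp3 lies at chr7:48830398-48848033 (minus), Xirp1 at chr9:120013755-120023598 (minus) and Flnc at chr6:29433256-29461883 (plus). The M-CAT element GGAATG, the sequence bound by TEAD transcription factors, was searched on both strands of the 250 bases before each RefSeq start site (GRCm38.p6), because TEAD factors and their YAP partners are a known route from load to muscle genes. It was found in 3 of the 9 promoters listed for 6 of the 7 genes, against 12.6% of all 32851 promoters. These 6 genes include Xirp2, which was not measured, and leave out Xirp1, which had no entry. For Ankrd23 and Flnc the element was in promoter 2 of the 2 listed and not in promoter 1. The elements are shown in capitals, each with 12 bases on both sides, 5′ to 3′ along the gene. The Ankrd1 copies lie 210 and 123 bases before the start (chr19:36120037-36120066 and chr19:36119950-36119979), the Ankrd23 copy 120 bases (chr1:36535842-36535871) and the Flnc copy 104 bases before it (chr6:29433140-29433169), these latter elements on the opposite strand and so written CATTCC.
Ankrd1, distal copy: gtcactgccaaaGGAATGaccctctcacat
Ankrd1, proximal copy: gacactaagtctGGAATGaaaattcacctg
Ankrd23: cccagtgggccaCATTCCcagaacggtatt
Flnc: cgggccgggcggCATTCCtgggaggccggc
By the coordinates above, the Ankrd1 and Ankrd23 elements lie inside the GENCODE genes, because the RefSeq starts used for them lie inside too. The Flnc element lies before its GENCODE gene. The match is a description of the letters and shows no binding.

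The 8 sections held 14179161 to 82859104 UMIs, with 683 to 3460 spots kept at 1000 UMIs or more. Muscle spots, those with a high mean of 9 contractile genes, numbered 549, 571 and 581 in the E14.5 controls, 3092 and 2199 in the E18.5 controls, 491 and 813 in the CaV1.1 KO at E14.5 and E18.5, and 1577 in the bCat cKO. The summed level of the 9 muscle genes in these spots was 21642 to 27362 CPM (UMIs of a gene or list after scaling the UMIs of the spots to the fixed total usual for CPM values) in E14.5 controls, 128417 and 131917 in E18.5 controls, 16235 and 71384 in the KO sections and 105199 in the cKO. Cacna1s, the gene of CaV1.1, was at 16.2 CPM in KO muscle at E14.5 against 18.3 to 22.8 in controls, and at 31.4 against 61.2 and 63.9 at E18.5. Ctnnb1, the gene of β-catenin, was at 81.5 in the cKO against 71.2 and 75.9. The sources used here do not say whether the probes lie in the mutated or deleted parts, so these levels do not check the genotypes. Heart muscle markers summed to 8.95 to 119 CPM in muscle spots, with Nppb at 0 in 6 of 8 sections.

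**Figure D1:**
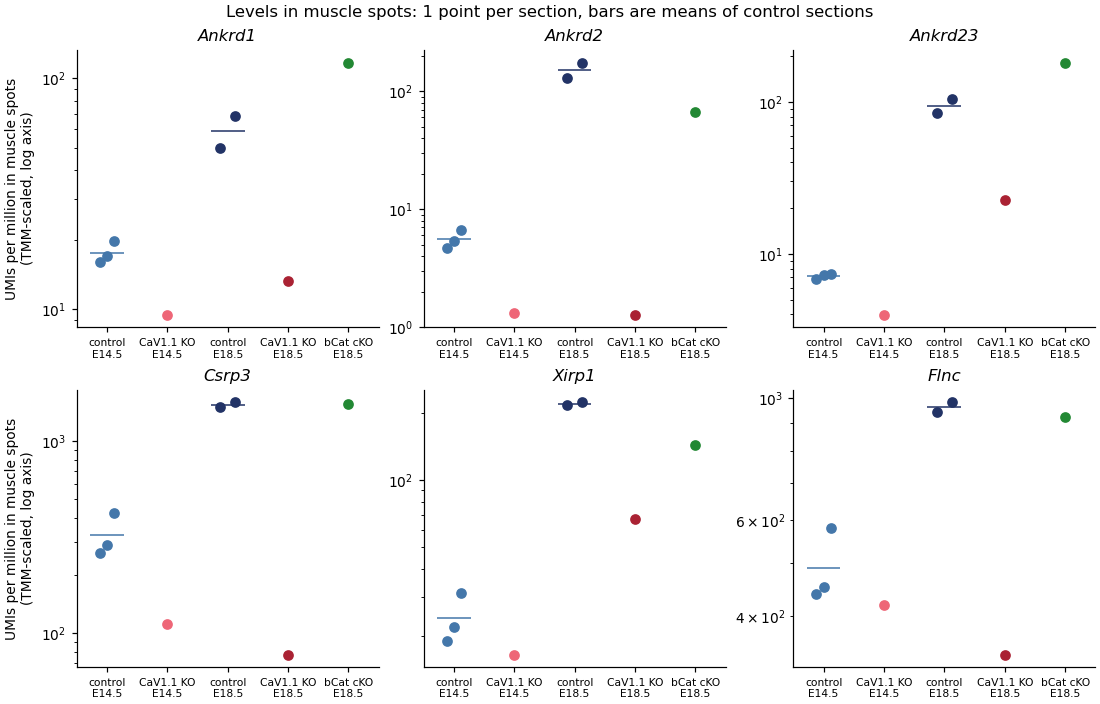
Level of each gene in muscle spots (CPM after TMM scaling, log axis) by group, 1 point per section, with the mean of the control sections as a bar. All 6 genes are higher in both E18.5 controls than in every E14.5 control, and all 6 are lower in the CaV1.1 KO than in controls of the same age.

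All 6 genes rose in control muscle between E14.5 and E18.5, the ankyrin repeat genes Ankrd2 and Ankrd23 most. Levels below are CPM in muscle spots after TMM scaling, with 3 sections at E14.5 and 2 at E18.5. They are not compared between genes, because each gene is read by its own probes. The share of all 14832 genes tested that rose was 33.2%, and 65.6% changed in either direction.

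Ankrd2, the family member of slow adult fibers, was at 6.71, 4.73 and 5.34 in the E14.5 controls and at 130 and 175 in the E18.5 controls. Its log2 difference was 4.78 (SE 0.18, edgeR adjusted p = 1.02e-06), a 27.4-fold rise that ranked 124 from the highest of all genes. Ankrd23 went from 6.80, 7.26 and 7.41 to 84.1 and 105 (log2 difference 3.72, SE 0.12, edgeR adjusted p = 6.35e-07). Ankrd1 rose less, from 19.7, 16.1 and 17.0 to 50.05 and 68.7 (log2 difference 1.76, SE 0.15, edgeR adjusted p = 3.15e-05). For none of the ankyrin repeat genes did the E14.5 and E18.5 sections overlap, and over all genes 38.7% had both E18.5 sections above every E14.5 section.

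Xirp1 rose from 31.3, 19.1 and 22.0 to 216 and 222 (log2 difference 3.18, SE 0.18, edgeR adjusted p = 5.23e-06). Csrp3 rose from 421, 289 and 261 to 1594 and 1514 (2.26, SE 0.20, edgeR adjusted p = 3.59e-05). Flnc showed the smallest change of the 6, from 580, 453 and 439 to 982 and 942 (0.97, SE 0.14, edgeR adjusted p = 0.000511). The groups did not overlap for these 3 genes either. E14.5 control 3 was the only E14.5 section made with the software version of the E18.5 sections, and the part of the version in the change with age was not tested.

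The size of the rise depends on the scaling. Before TMM scaling, relative to all UMIs of the spots, it was smaller. Flnc was then at 665, 553 and 545 CPM in the E14.5 controls against 713 and 689 at E18.5. Ankrd1 was at 22.6, 19.7 and 21.0 against 36.3 and 50.3. The summed level of the 9 contractile genes rose too. Scaled to these 9 genes, Ankrd2 (1.61) and Ankrd23 (0.54) were still higher at E18.5, Xirp1 was level at 0.04, and Csrp3 (−0.88), Ankrd1 (−1.41) and Flnc (−2.19) turned to a fall (log2 fold changes).

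Of the other genes of these pathways, all of them listed with earlier results known, 22 of 23 titin and Z-disc partners rose with age and none fell, with a median log2 fold change of 2.43 against −0.01 over all genes. They were led by Myoz1 (4.84) and Tcap (4.36), which anchor calcineurin and cap titin at the Z-disc. Of 15 filamin C partners and chaperones 13 rose and 0 fell, led by the small heat shock gene Hspb7 (4.08) and by Nrap (3.33), a scaffold of early myofibrils. Of 14 YAP, TEAD and SRF genes 11 rose, among them Fos (2.70) and the YAP targets Ccn2 (2.69) and Ccn1 (2.29), and Tead4 fell by 0.66. Of 14 adhesion and MTJ genes 11 rose and Parva fell by 0.30. Of 6 paralogs of Flnc and Csrp3, 4 rose, Flna fell by 0.87, and Csrp2 rose by 0.98.

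**Figure D2:**
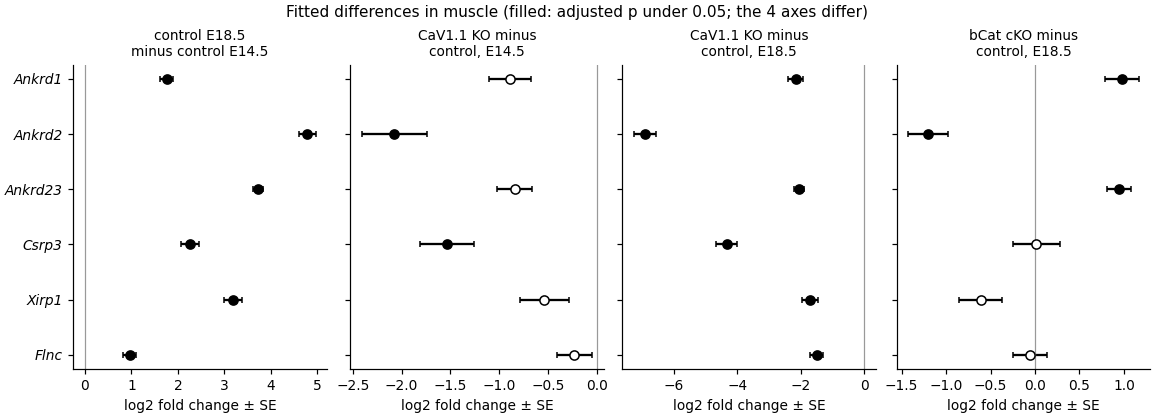
Log2 fold change with its standard error for each gene in 4 comparisons of muscle spots, filled where the adjusted p was under 0.05. The horizontal axes differ, and the KO at E18.5 spans the widest range, down to −6.90 for Ankrd2.

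In the CaV1.1 KO at E18.5, all 6 genes fell, with Ankrd2 and Csrp3 lowest relative to controls. Over all genes 15.2% fell and 25.7% changed, and 42.2% were below both controls, as all 6 genes were. Ankrd2 was at 1.28 in the KO against 130 and 175 in the controls, a 119-fold difference (log2 difference −6.90, SE 0.36, edgeR adjusted p = 0.000552) that ranked 16 from the lowest of all genes. The KO value rests on 22 Ankrd2 UMIs in 21 of 813 muscle spots, or 1.35 CPM before scaling (95% exact Poisson interval 0.846 to 2.04, counting error only). Ankrd2 UMIs were present in 77.5% and 89.0% of muscle spots in the controls and in 2.58% in the KO.

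Csrp3 fell 20.1-fold, to 77.3 against 1594 and 1514 (log2 difference −4.33, SE 0.34, edgeR adjusted p = 0.000889). Csrp3 UMIs were found in 67.4% of KO muscle spots against 99.9% and 100% in controls. Ankrd1 fell to 13.3 against 50.05 and 68.7 (−2.16, SE 0.23, edgeR adjusted p = 0.00171), and Ankrd23 to 22.8 against 84.1 and 105 (−2.05, SE 0.16, edgeR adjusted p = 0.000894). Xirp1 was at 66.9 against 216 and 222 (−1.71, SE 0.26, edgeR adjusted p = 0.00457). Flnc was at 341 against 982 and 942 (−1.50, SE 0.21, edgeR adjusted p = 0.00331).

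The 9 muscle genes were also lower in KO muscle spots, at 71384 against 128417 and 131917 CPM. Scaled to them, Ankrd2 (−5.49), Csrp3 (−2.92), Ankrd1 (−0.75) and Ankrd23 (−0.64) were still called lower, whereas Xirp1 (−0.30) and Flnc (−0.09) were not. In muscle spots surrounded by muscle alone, all 6 were called lower, from −1.32 for Flnc to −6.54 for Ankrd2.

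The maps of single spots show a few bright spots outside the muscle. By a threshold chosen after the maps were seen, spots with over 2000 CPM of the heart muscle markers numbered 4 in the KO at E18.5, 13 in the bCat cKO, 5 in E18.5 control 1 and 1 in E18.5 control 2, with 1 of these 5 a muscle spot and none of the others. Csrp3 was at 2470 CPM before scaling in those of the KO (95% exact Poisson interval 2105 to 2880, counting error only), next to 81.8 in the muscle spots of that section. It was at 2571 (2280 to 2888) in those of control 1, 974 (863 to 1097) in those of the cKO and 666 (395 to 1053) in the spot of control 2. Csrp3 in KO heart-marker spots was thus within the interval of control 1 and above the other sections. Ankrd1 was at 652 (472 to 878) in the KO, 824 (663 to 1011) in control 1 and 262 (206 to 329) in the cKO, and it had 0 UMIs in the spot of control 2, which allows up to 3 UMIs. The spots of a section come from 1 embryo, so no test was made.

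**Figure D3:**
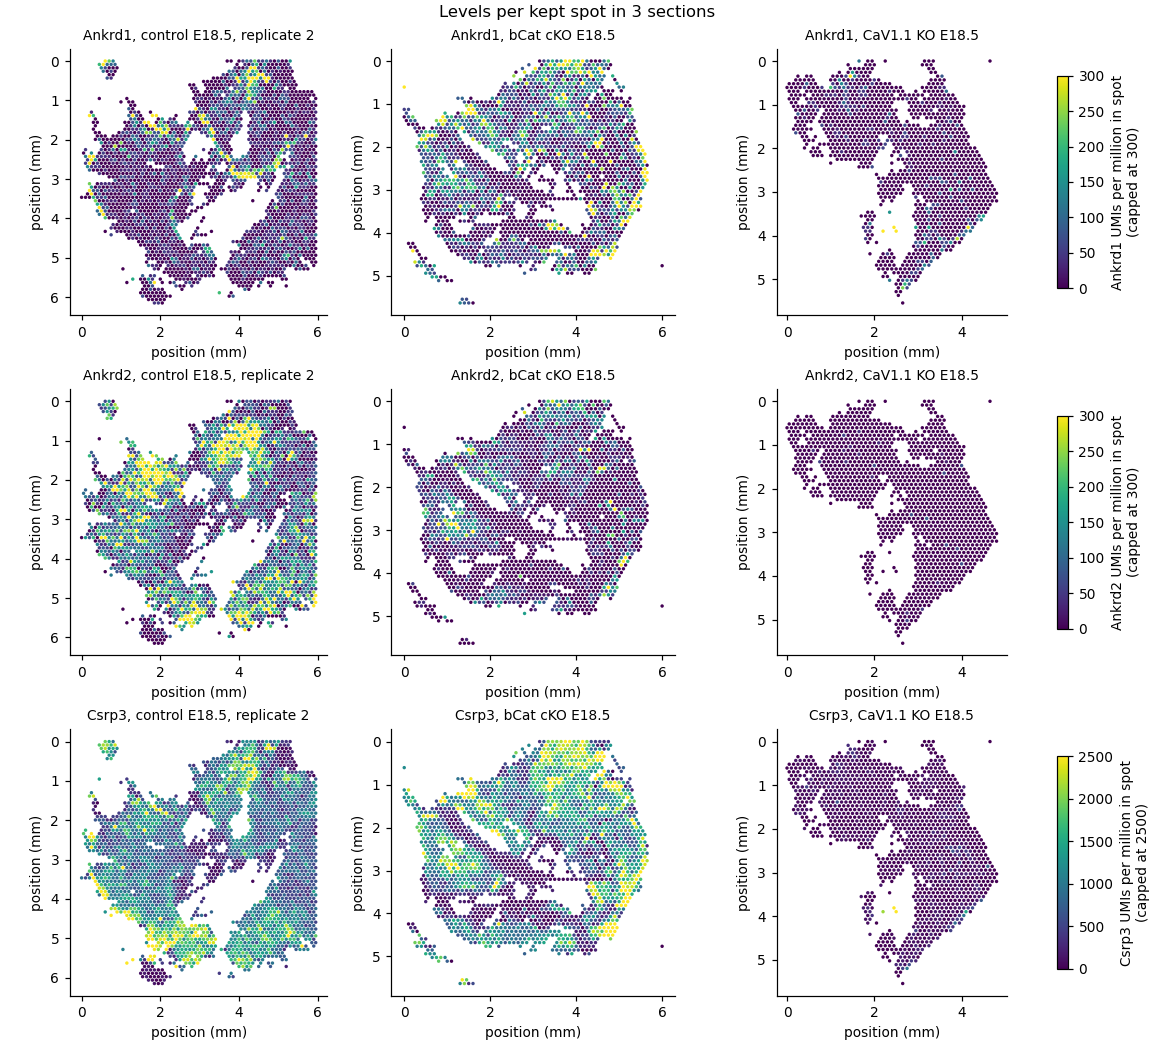
Ankrd1, Ankrd2 and Csrp3 per kept spot (CPM before scaling, capped as given at the color bars) in E18.5 control 2, the bCat cKO and the CaV1.1 KO, with position in mm on both axes. Ankrd1 lines the muscle edge toward the tendon in the control, Ankrd2 and Csrp3 are spread over muscle in the control, and all 3 are dark at these color scales over most of the KO section apart from single spots.

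At E14.5 the CaV1.1 KO differed from controls in 2 of the 6 genes, where 2.08% of all genes were called. Ankrd2 was at 1.32 in the KO against 6.71, 4.73 and 5.34 (log2 difference −2.08, SE 0.33, edgeR adjusted p = 0.0299). Csrp3 was at 112 against 421, 289 and 261 (−1.54, SE 0.28, edgeR adjusted p = 0.0400). Ankrd2 rested on 33 UMIs in the KO section.

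The other 4 genes were below every control, as were 30.7% of all genes, but did not pass the test. Ankrd1 was at 9.48 (−0.89, edgeR adjusted p = 0.0937), Ankrd23 at 3.99 (−0.84, edgeR adjusted p = 0.0662), Xirp1 at 16.6 (−0.54, edgeR adjusted p = 0.346) and Flnc at 419 (−0.23, edgeR adjusted p = 0.595). Without control replicate 3, which leaves only sections made with the same software version, Ankrd2 and Csrp3 had values of −2.10 and −1.67 and neither was called. Without control replicate 2, Csrp3 (−1.61) was not called. Scaled to the 9 muscle genes, which were at 16235 in the KO against 21642 to 27362, Ankrd2 (−1.51) and Csrp3 (−0.95) were still called, and Xirp1 (0.05) and Flnc (0.35) turned positive.

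The difference between KO and control was larger at E18.5 than at E14.5 for 4 of the 6 genes in a test of the difference itself, which called 6.4% of all genes. It was −4.82 for Ankrd2 (SE 0.55, edgeR adjusted p = 0.0176), −2.79 for Csrp3 (SE 0.38, edgeR adjusted p = 0.0210), −1.27 for Flnc (SE 0.26, edgeR adjusted p = 0.0378) and −1.21 for Ankrd23 (SE 0.24, edgeR adjusted p = 0.0338). Ankrd1 (−1.27, edgeR adjusted p = 0.0508) and Xirp1 (−1.17, edgeR adjusted p = 0.0846) did not pass. Ankrd2 was at about the same level in the KO sections of both ages (1.32 and 1.28), while it differed 27.4-fold between control ages. Csrp3 was lower in the later KO section (77.3) than in the earlier (112), and Xirp1 (66.9 and 16.6) and Ankrd23 (22.8 and 3.99) were higher in the later one. These differences between the KO ages were not tested. Without E14.5 control 3 none of the members was called, with Ankrd2 at −4.80 and Csrp3 at −2.66. Scaled to the muscle genes only Ankrd2 (−3.98) and Csrp3 (−1.98) were called.

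Among the related genes, 20 of 23 titin and Z-disc partners fell in the KO at E18.5 and 7 at E14.5, with none higher. The largest fall at E18.5 was that of Fhl1 (−3.19), a LIM protein that binds titin. Filamin C partners and chaperones fell in 9 of 15 cases at E18.5, led by Hspb1 (−2.33), Hspb7 (−2.24) and Nrap (−2.12), and in 2 of 15 at E14.5 (Nrap −2.35, Hspb7 −1.93). Of the 14 YAP, TEAD and SRF genes, 6 fell at E18.5, with Fos (−1.83), Srf (−1.61) and Ccn2 (−0.90) first, and Fos (−1.24) alone at E14.5. Adhesion and MTJ genes fell in 8 of 14 cases at E18.5, with Thbs4 (−3.65), a matrix protein of the tendon insertion, and Col22a1 (−1.66), a collagen of the MTJ, lowest. Of the 6 paralogs, Nrap (also counted among the filamin C partners), Lmcd1 (−0.90) and Csrp2 (−0.73) fell at E18.5.

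In the bCat cKO at E18.5, 3 of the 6 genes were called and not in the same direction, where 8.8% of all genes were called. Ankrd1 was at 117 in the cKO against 50.05 and 68.7 (log2 difference 0.98, SE 0.19, edgeR adjusted p = 0.0230). Ankrd23 was at 182 against 84.1 and 105 (0.95, SE 0.14, edgeR adjusted p = 0.00908). Ankrd2, in contrast, was at 66.3 against 130 and 175 (−1.202, SE 0.22, edgeR adjusted p = 0.0208). Each of these cKO values lay outside the range of both controls, as did those of 78.5% of all genes.

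Csrp3 was at 1570 in the cKO, between the controls (1594 and 1514; log2 difference 0.02, SE 0.27, edgeR adjusted p = 0.979). Flnc was at 924 against 982 and 942 (−0.06, SE 0.19, edgeR adjusted p = 0.885), and Xirp1 at 143 against 216 and 222 (−0.61, SE 0.24, edgeR adjusted p = 0.166). Without E14.5 control 3, which enters only through the estimate of the spread, Ankrd1 (0.98) and Ankrd2 (−1.203) kept their values but were not called. Scaled to the 9 muscle genes (105199 CPM in the cKO), Ankrd1 (1.504) and Ankrd23 (1.47) were called higher and Ankrd2 (−0.68) was not called. On that scale Csrp3 (0.54), Flnc (0.47) and Xirp1 (−0.09) were not called either. Before TMM scaling, Csrp3 was at 1330 CPM in the cKO, above both controls (1157 and 1107). Flnc was then at 783, also above both controls (713 and 689). Over all kept spots, muscle or not, Ankrd1 (0.65) was not called either and Xirp1 (−0.91) was called lower. In the cKO 7 of 23 titin and Z-disc partners fell, with Fhl1 (−1.93), Myoz3 (−1.27) and Tcap (−1.06) lowest, none of the filamin C partners or adhesion genes was called, Tead1 (−0.63) was the only gene of the YAP, TEAD and SRF list called, and of the paralogs Csrp1 (0.56) was higher.

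Both mutants were compared with the same 2 controls, so their contrasts with controls are not independent. Set against each other, KO muscle was lower than cKO muscle in 5 of the 6 genes, where 7.3% of all genes were called, with log2 differences of −5.69 for Ankrd2, −4.34 for Csrp3, −3.14 for Ankrd1, −2.99 for Ankrd23 and −1.44 for Flnc (edgeR adjusted p from 0.000809 to 0.0119). Xirp1 was at 66.9 in the KO and at 143 in the cKO (−1.10, SE 0.28, edgeR adjusted p = 0.0585). The order of the levels at E18.5 was thus cKO, controls and KO for Ankrd1 and Ankrd23, and controls, cKO and KO for Ankrd2. The levels of Xirp1 also stood in the order controls, cKO and KO. The cKO was apart from both by more than the SE but not past the adjusted threshold. The Xirp1 difference between KO and cKO was called with DESeq2 (−1.11) and without E14.5 control 1 or 2 (both −1.10). It was not called in muscle spots surrounded by muscle alone (−0.93) or over all kept spots (−1.09). Scaled to the 9 muscle genes it was −0.22 and not called. On that scale the other 5 genes ranged from −0.56 for Flnc to −4.82 for Ankrd2. For Csrp3 and Flnc the difference between the cKO and the controls was smaller than its SE after TMM scaling. Scaled to the 9 muscle genes it was larger than its SE (Csrp3 0.54, SE 0.22, and Flnc 0.47, SE 0.22).

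The genes differed in where in the muscle they were found. The MTJ region was taken as the 15% of muscle spots highest in Col22a1, Rxrg and Uchl1, with Ankrd1 left out of the score, the region of the neuromuscular junction (NMJ) as the 15% highest in 8 endplate genes, and the rest of the muscle as intermediate. Regions of a section were compared with the section as a block.

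Ankrd1 had the largest MTJ effect of the 6 members at both ages. At E14.5 it was at 37.6, 45.2 and 29.8 in the MTJ regions of the 3 controls against 19.4, 12.5 and 16.6 in intermediate muscle, and at 10.8, 9.0 and 8.79 in the NMJ regions. The MTJ effect was 1.34 on the log2 scale (SE 0.16, edgeR adjusted p = 2.22e-06). At E18.5 it was at 105 and 176 in the MTJ regions against 35.7 and 47.2 in intermediate muscle (1.74, SE 0.10, edgeR adjusted p = 9.63e-14). MTJ values were above all intermediate values at both ages, as they were for 4.73% of all genes at E14.5 and for 18.1% at E18.5 (15.8% and 46.3% did not overlap in either direction). The MTJ effect was larger at E18.5 by 0.40, which did not pass the test (SE 0.18, edgeR adjusted p = 0.182). This difference between ages was called without E14.5 control 2 (0.82), without E18.5 control 1 (0.56), scaled to the 9 muscle genes (0.93), with no filter on low counts (0.40) and with the MTJ region drawn by distance from other tissue (0.88). It was −0.18 in spots low in tendon genes and not called.

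Ankrd2 showed the opposite pattern at E18.5. It was at 91.3 and 119 in the MTJ regions against 137 and 184 in intermediate muscle (−0.60, SE 0.06, edgeR adjusted p = 5.30e-09), and at 143 and 198 in the NMJ regions. MTJ and intermediate values did not overlap at E18.5, as for 46.3% of all genes in either direction. At E14.5 the difference was −0.44 (SE 0.23, edgeR adjusted p = 0.270), with Ankrd2 counts low in all regions. In spots of the MTJ region with low tendon genes, the E18.5 difference of Ankrd2 was 0.04 and not called, whereas that of Ankrd1 was 1.14 and called.

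Tendon markers moved with the region. They summed to 736, 973 and 976 CPM in the MTJ regions at E14.5 against 545, 679 and 693 in intermediate muscle, and to 1087 and 1565 against 339 and 446 at E18.5. The 9 muscle genes were at 116108 and 115316 in the MTJ regions at E18.5 against 133418 and 136624 in intermediate muscle. Scaled to them, Ankrd1 (2.17) and Csrp3 (0.57) were called higher at the MTJ, Ankrd2 (−0.18) was not called, and Ankrd23 (0.33), Flnc (0.40) and Xirp1 (0.41) became higher. With the MTJ region drawn by distance instead, as muscle within 150 µm of other tissue, Ankrd1 was called at E18.5 (1.14) but not at E14.5 (0.25).

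After Ankrd1, Ankrd23 had the largest MTJ effect at E14.5, a 1.58-fold difference (0.66, SE 0.18, edgeR adjusted p = 0.0216). Its levels in the MTJ regions of the E14.5 controls rested on 30, 61 and 21 UMIs. At E14.5, 4 of the 6 genes were called higher at the MTJ where 8.79% of all genes were called, Ankrd1, Ankrd23, Csrp3 (0.30) and Flnc (0.17), and at E18.5 29.4% of genes and 3 members were called, Ankrd1, Csrp3 (0.15) and, lower, Ankrd2. Without E14.5 control 1 or 2, Ankrd23 (0.69 and 0.51) and Flnc (0.16 and 0.10) were not called at E14.5, and without either E18.5 control Csrp3 (0.11 and 0.19) was not called at E18.5. By distance, Csrp3 (−0.32) and Flnc (−0.27) turned lower at the edge at E14.5, and Ankrd23 (0.42) was not called. Ankrd23 was also not called at E14.5 in MTJ spots low in tendon genes (0.70). The MTJ effect of Ankrd23 differed between ages (−0.75, SE 0.19, edgeR adjusted p = 0.0125), the only member among the 9.49% of genes called, and was not called without E14.5 control 1 (−0.78) or 2 (−0.61). This call was also lost with scaling to the 9 muscle genes (−0.24) and in MTJ spots low in tendon genes (−0.835), and kept by distance (−0.83). At E14.5 Ankrd23 was at 10.46, 12.5 and 9.07 in the MTJ regions against 7.0, 7.19 and 6.77 in intermediate muscle, and at E18.5 at 80.1 and 109 against 90.9 and 109.

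In the NMJ region, 3 members were called at E14.5 where 13.9% of genes were, with Xirp1 higher (0.40, edgeR adjusted p = 0.00373) and Ankrd1 (−0.71, edgeR adjusted p = 0.0272) and Csrp3 (−0.20, edgeR adjusted p = 0.0127) lower. Xirp1 was at 40.8, 26.7 and 22.8 in the NMJ regions against 30.4, 18.6 and 21.7 in intermediate muscle, so that replicate 3 showed little of it. Without replicate 1 none of these calls was kept (Xirp1 0.38, Ankrd1 −0.63, Csrp3 −0.11). Scaled to the 9 muscle genes, Xirp1 (0.14) was not called at E14.5. Ankrd1 (−0.98), Csrp3 (−0.45), Ankrd23 (−0.68) and Flnc (−0.15) were then called lower. With the MTJ region by distance, Xirp1 (0.25) was not called at E14.5, and Ankrd1 (−0.95) and Csrp3 (−0.34) were called lower. At E18.5, 2 members were called where 11.3% of genes were. Ankrd23 was lower at 61.6 and 82.6 against 90.9 and 109 (−0.48, edgeR adjusted p = 1.46e-05), and Ankrd1 was higher at 51.8 and 52.8 against 35.7 and 47.2 (0.36, edgeR adjusted p = 0.0426). The call of Ankrd1 was lost without E18.5 control 1 (0.16) or E14.5 control 1 (0.35), with DESeq2 (0.37) and with the MTJ region by distance, where the difference was 0.0077. Scaled to the muscle genes, the call of Ankrd23 was lost (−0.21).

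**Figure D4:**
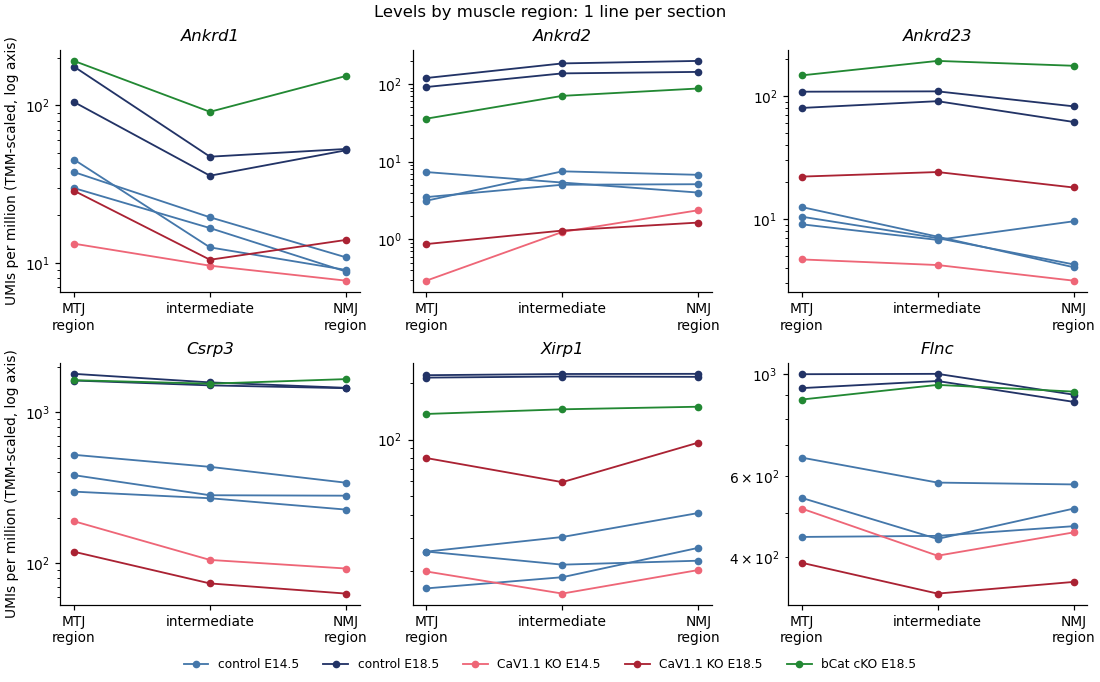
Level in the MTJ region, intermediate muscle and the NMJ region (CPM after TMM scaling, log axis), with 1 line per section colored by group. Ankrd1 is higher at the MTJ than in intermediate muscle in all 8 sections, and Ankrd2 is lower at the MTJ than in intermediate muscle in 7 of 8 sections. The MTJ regions of the CaV1.1 KO at E14.5 and E18.5 held only 1 and 2 Ankrd2 UMIs, too few to give a direction.

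Few region effects differed between mutants and controls. MTJ and NMJ regions were ranked within each section. Those of mutants need not match those of controls in marker levels, which were not compared. Col22a1 of the MTJ score was lower in KO muscle at E18.5, as given above. In the CaV1.1 KO, Ankrd1 was at 13.2 in the MTJ region and 9.58 in intermediate muscle at E14.5, and at 28.7 and 10.4 at E18.5. The differences of these effects from controls were −0.87 (SE 0.41, edgeR adjusted p = 0.491) and −0.28 (SE 0.37, edgeR adjusted p = 0.777), and scaled to the 9 muscle genes the first was −1.37 and called. In the bCat cKO, Ankrd1 was at 191 in the MTJ region, 90.9 in intermediate muscle and 154 in the NMJ region, an MTJ effect that was 0.66 smaller on the log2 scale than in controls but did not pass the test (SE 0.16, edgeR adjusted p = 0.0820), and was called without E18.5 control 1 (−0.83). None of the members was called there, and 0.183% of all genes were (1093 genes had an unadjusted edgeR p under 0.05). With the MTJ drawn by distance the Ankrd1 difference was −1.39 in the cKO and −2.25 in the KO at E18.5, both called. The region by distance took a larger part of the muscle in the mutants. It held 285 of 813 muscle spots in the KO and 316 of 1577 in the cKO, against 301 of 3092 and 188 of 2199 in the controls.

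The MTJ effect of Csrp3 was larger in the KO. Csrp3 was at 190 in the MTJ region and 105 in intermediate muscle at E14.5, and at 119 and 73.4 at E18.5, next to 1800 and 1626 against 1580 and 1510 in the E18.5 controls. The difference of the effects was 0.56 at E14.5 (SE 0.12, edgeR adjusted p = 0.0248, 0.695% of genes called) and 0.55 at E18.5 (SE 0.15, edgeR adjusted p = 0.0295, 4.85% called). No other member was called in these comparisons. Xirp1 had differences of nearly the same size, 0.50 at E14.5 (SE 0.24, edgeR adjusted p = 0.492) and 0.45 at E18.5 (SE 0.15, edgeR adjusted p = 0.0774), of which the latter was called without E14.5 control 3 (0.44) and with no filter on low counts (0.47). The Csrp3 difference at E14.5 was not called without E14.5 control 1 (0.52) or 3 (0.48), and that at E18.5 was not called without E18.5 control 2 (0.51). Scaled to the muscle genes the Csrp3 differences were 0.02 and 0.19, and with the MTJ drawn by distance −0.09 and −0.19, not called.

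Levels were also compared by fiber type. Muscle spots of the E18.5 controls were ranked by 6 slow genes (Myh7, Tnni1 and others) minus 5 fast genes (Myh4, Pvalb and others), and the highest 25% (slow-rich) were compared with the lowest 25% (fast-rich). Of the 6 members 4 were called, where 15.4% of genes were. Ankrd1 was at 81.1 and 87.8 in slow-rich against 28.8 and 48.0 in fast-rich muscle (1.17, SE 0.11, edgeR adjusted p = 7.63e-08). Ankrd2 was at 190 and 227 against 87.5 and 136 (0.92, SE 0.07, edgeR adjusted p = 3.39e-09), and Csrp3 at 2297 and 1995 against 1082 and 1137 (0.95, SE 0.09, edgeR adjusted p = 1.31e-07).

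Ankrd23 was lower in slow-rich muscle, at 75.7 and 89.8 against 91.2 and 114 (−0.31, SE 0.06, edgeR adjusted p = 0.00143). The 9 muscle genes were at 119145 and 120573 in slow-rich and at 139535 and 143567 in fast-rich spots, and scaled to them Ankrd23 was at 0.10 and not called. It was also not called with DESeq2 (−0.31) or without either E18.5 control (−0.34 and −0.27). Flnc (0.23, edgeR adjusted p = 0.0683) and Xirp1 (0.13, edgeR adjusted p = 0.264) did not pass. Scaled to the 9 muscle genes, both Flnc (0.63) and Xirp1 (0.53) were called higher in slow-rich muscle. Col22a1, which marks the MTJ, was also higher in slow-rich spots (2.51). In spots outside both the MTJ and NMJ regions, Ankrd2 (1.06) and Csrp3 (0.91) were called and Ankrd1 (0.36) and Ankrd23 (−0.21) were not.

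In the bCat cKO this slow to fast difference was not that of controls for 5 of the 6 genes, where 7.08% of genes were called. Slow-rich and fast-rich spots of each mutant were the same shares of its own muscle spots, ranked within its section. They need not match those of controls in slow and fast gene levels, which were not compared. The paper reports that type I muscle genes were reduced in the costal diaphragm of the cKO. Ankrd2 was at 70.9 in slow-rich and 89.8 in fast-rich muscle of the cKO, a difference of effects of −1.27 (SE 0.14, edgeR adjusted p = 3.74e-06). Ankrd23 was at 133 and 282 (−0.77, SE 0.10, edgeR adjusted p = 4.53e-05). Csrp3 was at 1836 and 1580 (−0.73, SE 0.16, edgeR adjusted p = 0.00481).

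Xirp1 was at 120 and 174 (−0.66, SE 0.13, edgeR adjusted p = 0.00215) and Flnc at 835 and 1114 (−0.64, SE 0.14, edgeR adjusted p = 0.00581). Ankrd1 was at 161 and 99.7, with a difference of −0.47 that did not pass (SE 0.17, edgeR adjusted p = 0.124). In the cKO the muscle genes were at 82586 in slow-rich and 127608 in fast-rich spots, and scaled to them Ankrd2 alone was called (−0.68). Without control replicate 1, Csrp3 (−0.59), Xirp1 (−0.52) and Flnc (−0.54) were not called. Of the Z-disc partners 17 of 23 had a lower effect in the cKO. This list includes Actn3, which is also among the fast genes of the ranking.

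In the CaV1.1 KO at E18.5 the slow to fast difference was not that of controls for Xirp1 and Flnc, where 7.26% of genes were called. Its spots were also ranked within the section. For KO muscle the paper describes lower slow myosin genes and, at E18.5, higher fast myosin heavy chains. Slow-rich and fast-rich spots may thus differ in content from those of controls, which was not tested. Xirp1 was at 53.1 in slow-rich and 85.7 in fast-rich muscle (difference of effects −0.82, SE 0.18, edgeR adjusted p = 0.00570), and Flnc at 293 and 415 (−0.73, SE 0.15, edgeR adjusted p = 0.00414). Ankrd1 was at 11.4 and 9.89 (−0.96, SE 0.40, edgeR adjusted p = 0.166) and Csrp3 at 81.3 and 67.0 (−0.67, SE 0.21, edgeR adjusted p = 0.0583). Without control replicate 1 neither Xirp1 (−0.68) nor Flnc (−0.62) was called. Scaled to the muscle genes both were near 0 (−0.12 and −0.03).

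**Figure D5:**
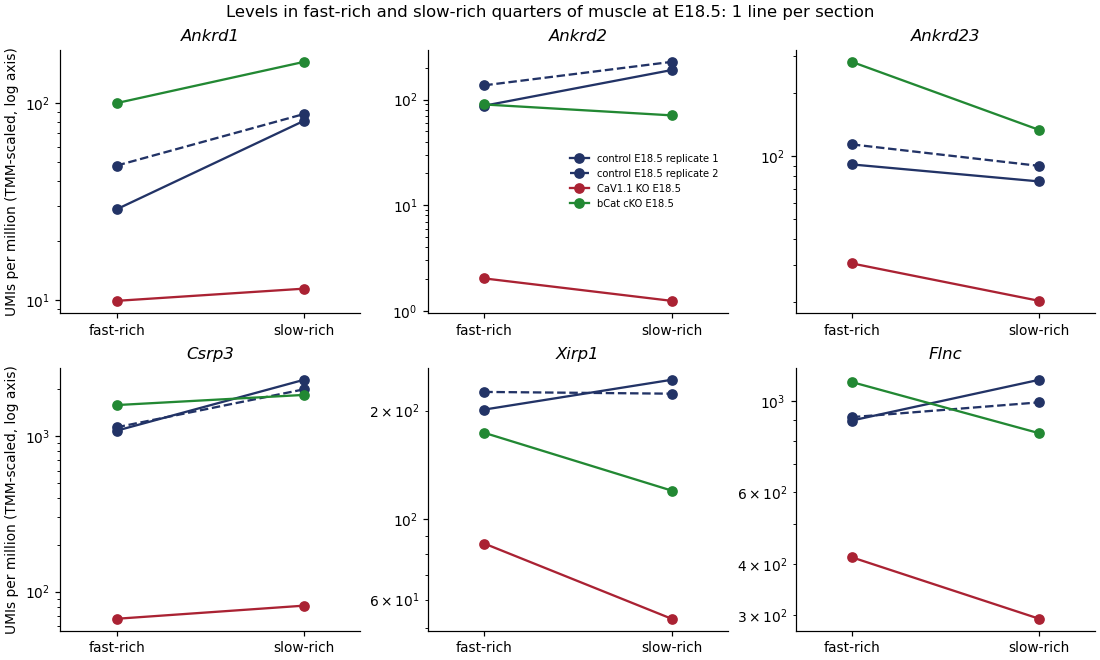
Level in the fast-rich and slow-rich 25% of muscle spots of the 4 E18.5 sections (CPM after TMM scaling, log axis), with 1 line per section. Ankrd2 and Csrp3 rise toward slow-rich muscle in both controls, and the lines of the bCat cKO fall for Ankrd2, Ankrd23, Xirp1 and Flnc.

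Over single muscle spots the members were only loosely tied to each other. Csrp3 and Flnc had the highest r of all pairs in 6 of the 8 sections, with Pearson r over spots of 0.24 to 0.26 in the E14.5 controls, 0.46 and 0.52 in the E18.5 controls, 0.46 in the cKO and 0.16 and 0.17 in the KO sections. In E14.5 control 2 (0.30) and in the KO at E18.5 (0.25) the r of Ankrd1 and Csrp3 was higher. Spots of a section share its library and their depth, and low counts weaken each r, so these are descriptions. By the mean r over the 5 control sections, among genes with at least 500 UMIs in muscle in each, Ankrd1 was most like Col22a1 (0.39, range 0.19 to 0.57), Map3k7cl (0.32) and the embryonic myosin Myh3 (0.26). Csrp3 was most like Myh3 (0.44), Tceal7 (0.40) and the embryonic light chain Myl4 (0.39), and Flnc like Myl4 (0.33), slow troponin Tnni1 (0.32) and the chaperone Cryab (0.32). Ankrd2 (Fhl1, 0.21; Myh7, 0.19; Tnni1, 0.18), Xirp1 (Tnni1, 0.16; Fhl1, 0.16; Casq2, 0.14) and Ankrd23 (Col22a1, 0.12; Lmod2, 0.12; Myl12a, 0.11) had no close match.

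The deposited Moran's I, a score of how far neighbouring spots have like values, varied between sections. Csrp3 was at 0.210, 0.370 and 0.318 in the E14.5 controls, at 0.407 and 0.534 in the E18.5 controls and at 0.568 in the cKO, against 0.177 and 0.159 in the KO sections. Ankrd2 was at 0.184 and 0.368 in the E18.5 controls, at 0.371 in the cKO and at −0.009 in the KO at E18.5. The score depends on counts and on the tissue outside muscle, and sections were not tested against each other.

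Muscle spots held between 59.1% (the KO at E14.5) and 91.5% (E18.5 control 1) of all UMIs in kept spots. Between 59.5% (Ankrd23 in the KO at E14.5) and 98.8% (Ankrd2 in E14.5 control 3) of the UMIs of a member came from them. The share of Ankrd23 in the KO at E14.5 was thus close to that of all UMIs in the section. Ankrd1 in E18.5 control 1 was higher outside muscle (44.0 CPM before scaling) than in it (36.3), and heart muscle markers summed to 211 outside and 13.1 inside muscle there. In E18.5 control 2 Ankrd1 was at 26.4 outside and 50.3 inside. Ankrd23 was about as high outside as inside muscle in the E14.5 controls, with ratios of 0.799, 1.203 and 1.02, and 1.87 and 2.85 times higher inside at E18.5.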

How the data were processed

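Probe-based spatial libraries of 8 sections were analysed. Per the file headers and the submitters' notes, the authors made the deposited UMI counts per spot with Space Ranger (2.0.0 in the headers of 3 E14.5 sections, 2.0.1 in the others) on mm10, and the authors deposited a Moran's I score per gene and section. The members and all lists were chosen with earlier results of these data known. Spots under tissue with at least 1000 UMIs were kept, muscle spots were set by Otsu's threshold on 9 muscle genes, and counts were summed per section and region. The sums were tested with edgeR 4.0.16 (quasi-likelihood, TMM, filterByExpr, Benjamini-Hochberg adjustment over all genes tested, called under 0.05), which was tested on simulated data, with DESeq2 1.42.0 as an alternative. Sections are separate embryos, spots are not replicates, and p-values for mutants rest on the spread between controls. Sections held 14179161 to 82859104 UMIs. Genes named were the members, up to 3 genes per list and direction with the largest called change, and the 3 genes most like each member. Alternatives changed scaling, filter, block, spot choice, region rule and sections. A planned comparison along a tissue axis is not reported here.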

Additional observations from a re-analysis of the deposited data

Results flagged for a closer look

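These results concern effects that differed between 2 groups in a test of the difference itself, and all are log2 differences from edgeR. The KO effect differed between E18.5 and E14.5 for Ankrd2 (−4.82), Csrp3 (−2.79), Flnc (−1.27) and Ankrd23 (−1.21). The MTJ effect differed between control ages for Ankrd23 (−0.75), and between the CaV1.1 KO and controls for Csrp3 at E14.5 (0.56) and at E18.5 (0.55). The effect of slow-rich against fast-rich muscle differed between the bCat cKO and controls for Ankrd2 (−1.27), Ankrd23 (−0.77), Csrp3 (−0.73), Xirp1 (−0.66) and Flnc (−0.64), and between the CaV1.1 KO and controls for Xirp1 (−0.82) and Flnc (−0.73). MTJ regions and slow-rich and fast-rich spots were ranked within each section, and the levels of the ranking genes in them were not compared between mutants and controls. The mutants are 1 section each, and the causes of these differences were not tested.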

How the results depend on the processing

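Of 1309 values of the members recomputed under the alternatives, 1048 kept their direction and their side of the threshold, 51 turned sign but were called under neither setting, 117 lost a call, 74 gained one and 19 reversed. A further 11 values had no adjusted p from DESeq2 and were not counted. With the values as log2 differences, scaling to the 9 muscle genes reversed the change with age of Flnc (−2.19), Csrp3 (−0.88) and Ankrd1 (−1.41), the MTJ effect at E18.5 of Ankrd23 (0.33), Flnc (0.40) and Xirp1 (0.41), its difference between ages for Flnc (0.29) and Csrp3 (0.34) and between KO and control at E14.5 for Flnc (−0.37), the NMJ effect of Flnc at E14.5 (−0.15) and of Csrp3 (0.19) and Xirp1 (0.28) at E18.5, and the slow-rich effect of Ankrd23 (0.10). The MTJ region by distance reversed the MTJ effect of Flnc (−0.27) and Csrp3 (−0.32) at E14.5 and of Csrp3 (−0.24) at E18.5, and its difference between KO and control for Csrp3 at E14.5 (−0.087) and E18.5 (−0.19). MTJ spots low in tendon genes reversed Ankrd2 at E18.5 (0.038).

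The counts of called members moved as follows. For the KO at E14.5 (2) they were 4 with DESeq2, 4 with no filter, 1 in interior muscle and 4 in all kept spots. For the difference of KO effects between ages (4) they were 2 with muscle scaling and 2 in interior muscle. With no section block, the MTJ effect had 1 at E14.5 (of 4) and 1 at E18.5 (of 3), the slow-rich effect in controls 1 (of 4), and the NMJ effect at both ages, the difference of MTJ effects between ages, between KO and control at both ages, and the slow-rich differences of both mutants 0. The MTJ effect at E18.5 had 5 with muscle scaling and 5 by distance. Its difference between ages (1) had 2 with DESeq2 size factors, 4 with muscle scaling, 3 with no filter, 2 by distance and 0 in spots low in tendon genes. Ankrd23, the member called before, was not among the 4 with muscle scaling. The KO difference at E14.5 (1) had 2 with muscle scaling, 2 with no filter, and 0 with a region share of 10%, by distance and in spots low in tendon genes. At E18.5 (1) it had 2 with no filter, and 0 with muscle scaling, shares of 10% and 25% and spots low in tendon genes. The cKO difference (0) had 1 with muscle scaling, no filter, a share of 10% and spots low in tendon genes, and 2 by distance. The NMJ effect at E18.5 (2) had 1 with DESeq2, 4 with muscle scaling and 1 by distance. The slow-rich effect in controls had 2 in intermediate spots, its cKO difference (5) 1 with muscle scaling, and its KO difference (2) 1 with DESeq2, among the 5 members given an adjusted p, and 0 with muscle scaling. With DESeq2 3 members had an adjusted p for the cKO difference, and 2 of these were called.

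Replicate numbers are shared by control E14.5 and E18.5 sections of different embryos and pair nothing. With the replicate block the KO at E14.5, the bCat cKO and the difference of KO effects had 0 called members, while the change with age kept a count of 6, the KO at E18.5 of 6 and the KO against the cKO of 5.

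With each section left out in turn, called members ranged from 6 to 6 for age and for the KO at E18.5, 0 to 4 for the KO at E14.5, 1 to 4 for the cKO, 5 to 6 for KO against cKO and 0 to 6 for the difference of KO effects. They ranged from 2 to 5 and 2 to 3 for the MTJ effect at E14.5 and E18.5, 0 to 2 for its difference between ages, 0 to 1 and 0 to 2 for its KO difference at E14.5 and E18.5, 0 to 1 for its cKO difference, and 0 to 3 and 1 to 3 for the NMJ effect. The slow-rich effect ranged from 3 to 5 in controls, 2 to 6 for the cKO and 0 to 4 for the KO difference. Causes of these changes were not tested. Ankrd2 in the KO sections rests on 33 and 22 UMIs, which limits its regional values most.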
